A study of Mus musculus with 10 samples.

Results

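The members described here are 34 genes that mark the oligodendrocyte lineage and the beginning of myelin, matched to the table by symbol. The rule that lists them uses no measured value, but the members were chosen with earlier results of these data known. They fall into 8 precursor and lineage-wide genes, 10 genes of committed precursors and newly forming oligodendrocytes, and 16 myelin genes. Of the 34 members, 33 were among the 18444 genes of the table and all 33 reached the minimum mean of 10 normalised counts, so that 33 of the 17020 genes tested were members. No expression value of *Opalin*, a membrane protein of mature myelin, was analysed here. Whole brains came from male C57BL/6N mice at postnatal day 3 (P3), 5 heterozygous for *Arid1b* (HT) and 5 wild type (WT), with 1 library of poly-A-selected RNA per mouse and no treatment in either group. The HT mice carry an allele edited at exon 5 by Cas9 nickase, come from 1 edited line, and were bred by crossing HT males with WT C57BL/6N females. The allele is present in every cell, so that effects of cells within the lineage and of cells outside it cannot be told apart, and the litter of each pup is not given in the sources used here.

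Oligodendrocytes arise from precursors that carry the PDGF receptor alpha and are specified by the OLIG and SOXE transcription factors. A precursor that leaves the cell cycle passes through a short committed stage, marked by the receptor GPR17, and then switches on the transcription factor MYRF, which acts with SOX10 on the genes of the myelin sheath. In the mouse the sheath forms after birth, earliest in the spinal cord and hindbrain and later in the forebrain. ARID1B is a DNA-binding subunit of the BAF chromatin remodelling complex, and the ATPase of that complex, BRG1, is known to act with OLIG2 and SOX10 in this lineage.

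As a check of the genotype, the mean normalised count of *Arid1b* was 2101 ± 343 over the HT and 3335 ± 203 over the WT libraries (SD, n = 5 per genotype), an HT mean of 63.0% of WT with no overlap between the groups. A normalised count is an estimated read count divided by a size factor of the library, and libraries summed to between 27243506 and 29032442. The library HT 4 stood apart from the other 9, with a median absolute deviation of 0.209 from the gene means on the log2 scale against 0.0772 to 0.108, and with short transcripts raised relative to long ones. It was kept, and values without it are given for the members and lists that it moved most.

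The level of each member was first set against the others per kilobase of its longest annotated transcript, as the mean over libraries of the normalised count divided by that length. Genes of the precursor stage and genes of myelin stood at the top together. *Sirt2*, a deacetylase that myelin contains and that neurons also make, had the highest level per kilobase with 1329 ± 55.2 in WT and 1383 ± 133 in HT (SD, n = 5 each). *Olig1*, a basic helix-loop-helix factor of the whole lineage, followed with 1262 ± 59.0 and 1339.7 ± 258, and the libraries of these neighbours overlapped. *Mbp*, which encodes myelin basic protein and also, from an upstream start, the golli proteins of other cells, came next with 631 ± 145 per kilobase in WT.

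Among the precursor members, *Lhfpl3*, *Pdgfra* and *Olig2* formed a second tier below *Olig1* at 488 ± 16.6, 486 ± 45.9 and 412 ± 35.1 per kilobase in WT, of which the first pair did not differ beyond their spread. The lowest members of this stage were *Nkx2-2*, a homeodomain factor that acts when precursors differentiate, and *Cspg4*, the NG2 proteoglycan of precursors and pericytes, at 102 and 97.9 over all libraries. Committed members ran from 363 per kilobase for *Gpr17* down to 11.5 for the sialidase gene *Neu4*. Myelin members spanned the widest range, from *Sirt2* down to 8.35 for *Mog*, the myelin oligodendrocyte glycoprotein of the outermost lamella. In all, the summed level per kilobase was 42.0% from precursor members, 16.2% from committed members and 41.8% from myelin members. *Sirt2*, which neurons also make, held 1356 of the myelin sum of 3388. Both these shares and the order depend on the length used. With the union of exons *Sirt2* was at 570 per kilobase, and *Olig1* was the highest member at 1301. With the median length of the coding transcripts *Mbp* was the highest member and *Tspan2*, a tetraspanin of early oligodendrocytes, was the highest committed one.

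**Figure D1:**
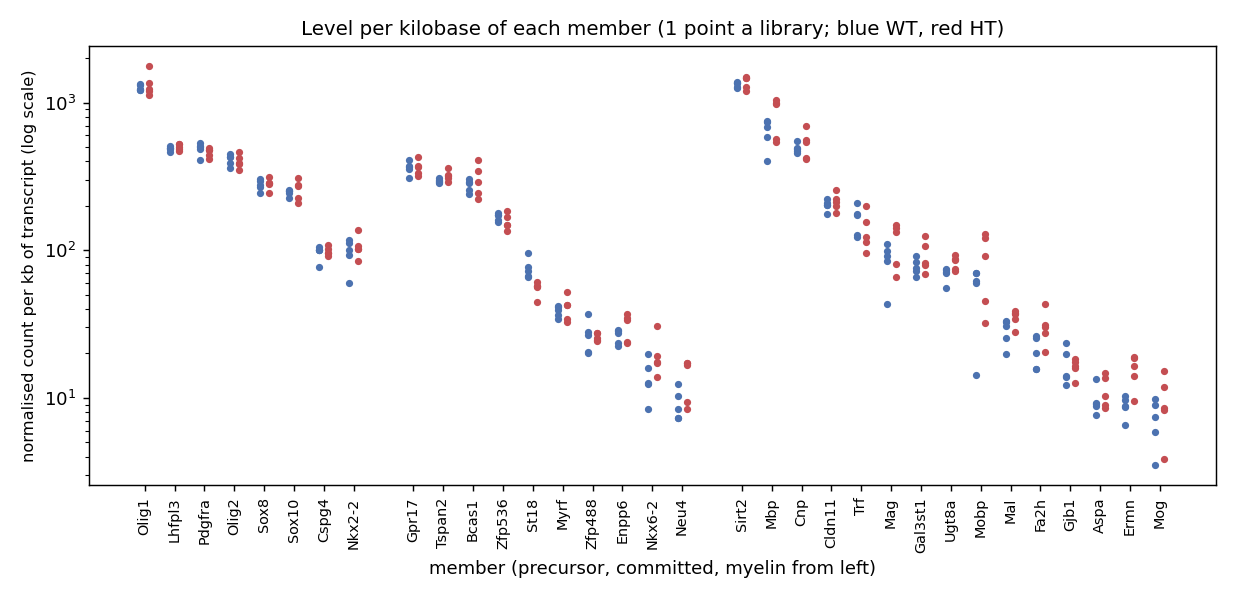
Normalised count per kilobase of the longest transcript (y axis, log scale) for the 33 members (x axis, by stage, in the order of their WT mean), with 1 point for each of the 5 WT (blue) and 5 HT (red) libraries. *Sirt2* and *Olig1* are at the top, and *Mobp* has the widest spread between libraries, from 47.0 to 426 normalised counts.

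The comparison of HT with WT asked whether loss of 1 *Arid1b* allele changes this lineage in the newborn brain. No member passed the limma test, with an adjusted p of 1.00 for each of the 33, and 0% of all genes tested passed it, while 580 genes had an unadjusted p under 0.05. The edited gene *Arid1b* itself did not pass it with all libraries (adjusted p 0.390) and did without HT 4 (adjusted p 0.000252). At an unadjusted p under 0.05, 4 members were higher in HT (*Ermn*, *Fa2h*, *Ugt8a* and *Neu4*) and 1 was lower (*St18*), which is 4 and 1 of 33 beside 1.47% of all genes higher and 1.93% lower. An exact permutation p under 0.05 was found for 3 members higher in HT (*Ermn*, *Ugt8a* and *Fa2h*) and for *St18*, beside 1.72% of all genes higher and 2.19% lower. Groups did not overlap for 1 member, *St18*, beside 0.347% of all genes that were lower in this way and 0.282% that were higher. In whole-brain RNA, fewer cells of a type and less RNA per cell cannot be told apart.

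By stage, fold changes of the precursor members lay close to 0, while most myelin members had a higher mean in HT. The median log2 fold change was 0.040 over 8 precursor members (6 higher, 2 lower), 0.084 over 10 committed members (7 higher, 3 lower) and 0.26 over 15 myelin members (13 higher, 2 lower). Over all genes tested the median was -0.0074 and 46.4% of genes were higher. Without HT 4 the medians were -0.014, 0.037 and 0.24, beside -0.00081 over all genes. The mean deviation of the myelin members from their own means was 0.13 ± 0.24 in HT and -0.13 ± 0.16 in WT (log2 units, SD, 5 libraries per genotype), and the groups overlapped, since HT 2 was at -0.23 and WT 1 at 0.082. HT 1 and HT 2 lay among the WT libraries, and HT 3, HT 4 and HT 5 lay above all of them.

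**Figure D2:**
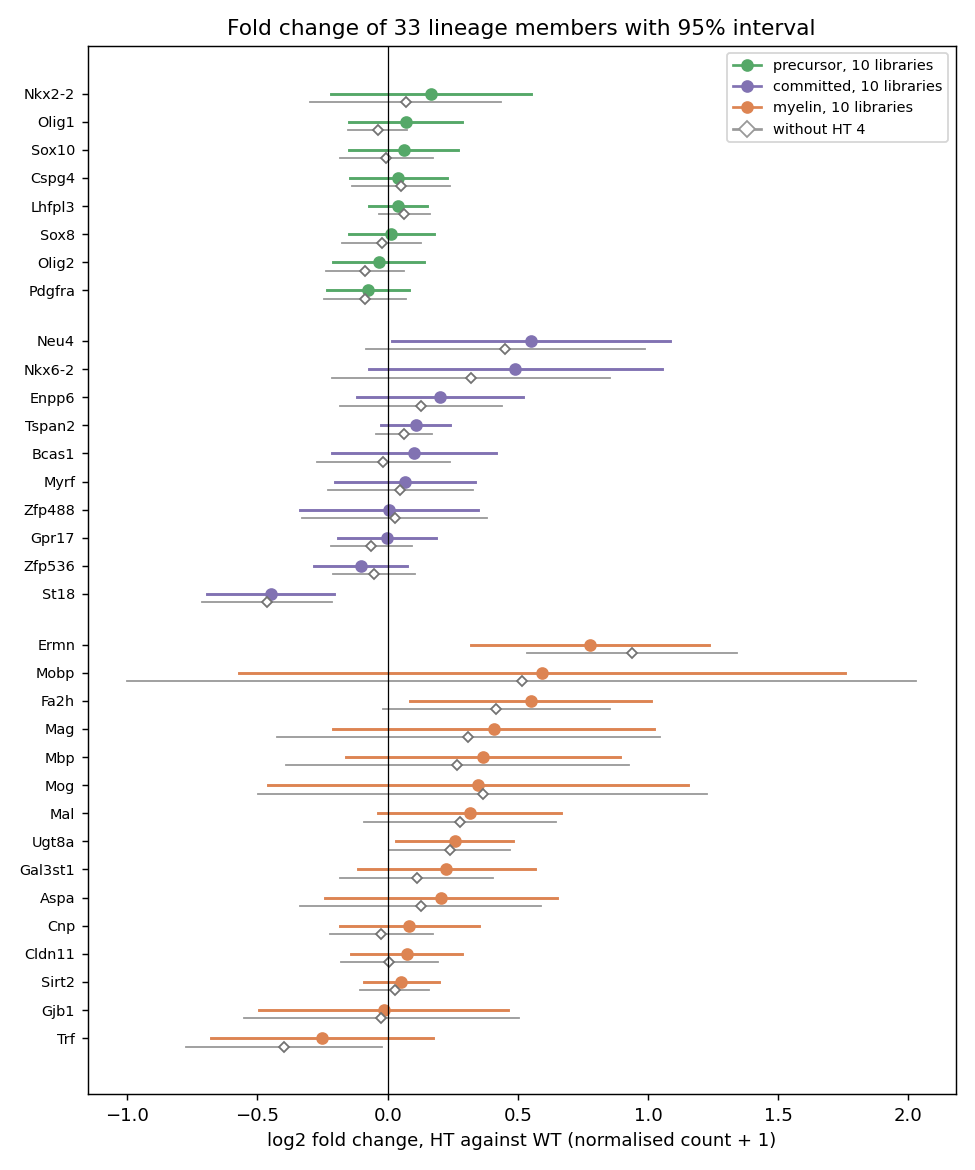
Log2 fold change of HT against WT (x axis, on normalised count + 1) for the 33 members, by stage, with 95% intervals from limma for all 10 libraries (filled circles) and without HT 4 (open diamonds). *St18* and *Ermn* are the members whose interval lies farthest from 0, at -0.45 and 0.78, and the intervals of *Mobp*, *Mag*, *Mbp* and *Mog* are wide.

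Among the precursor members, no fold change was past an unadjusted p of 0.05. *Pdgfra*, the receptor through which precursors are kept dividing, had normalised counts of 3278, 3377, 2826, 3257 and 3006 in HT 1 to HT 5, and 3294, 3626, 3413, 3468 and 2802 in WT 1 to WT 5. Its log2 fold change was -0.074 with a 95% interval of -0.23 to 0.084. *Olig2*, the factor that specifies the lineage, had 892, 989, 977, 1169 and 1061 in HT 1 to HT 5, and 1139, 1081, 995, 1082 and 913 in WT 1 to WT 5. The groups overlapped over nearly their whole range, and the log2 fold change was -0.035 (-0.21 to 0.14), or -0.086 without HT 4. *Sox10*, which drives differentiation together with MYRF, had 581, 633, 764, 858 and 767 in HT 1 to HT 5, and 704, 697, 711, 679 and 632 in WT 1 to WT 5. HT libraries lay both below and above the WT libraries, with SDs of 112 in HT and 31.5 in WT, and the log2 fold change was 0.061 (-0.15 to 0.27), or -0.0052 without HT 4.

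*Olig1* had 2446, 2672, 2591, 3842 and 2930.2 in HT 1 to HT 5, and 2829.7, 2897, 2622, 2623 and 2666 in WT 1 to WT 5. HT 4 was the highest of the 10 libraries, and the log2 fold change went from 0.069 with it to -0.038 without it. The other 4 precursor members had log2 fold changes of 0.042 (*Cspg4*), 0.015 (*Sox8*, a SOXE factor related to SOX10), 0.17 (*Nkx2-2*) and 0.039 (*Lhfpl3*), which were 0.051, -0.023, 0.070 and 0.064 without HT 4. Unadjusted p values over the 8 ran from 0.328 to 0.848. *Lhfpl3* was the steadiest member, with a spread of 0.063 between libraries of a genotype (residual SD, log2 units) that was smaller than that of all but 6.84% of genes.

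The committed stage held the 1 member whose groups did not overlap. *St18* (ENSMUSG00000033740; chromosome 1, 6487231 to 6860940, GRCm38 here and for the genes after it), a zinc finger factor of the MYT family that also acts in neurons, was lower in every HT library than in every WT library. Its normalised counts were 337, 359.6, 332, 336 and 261 in HT 1 to HT 5, and 561, 391, 397, 452 and 427 in WT 1 to WT 5. Means were 325 ± 37.4 (HT) and 446 ± 68.9 (WT; SD, n = 5 per genotype). The log2 fold change was -0.45 ± 0.11 (SE) with an unadjusted limma p of 0.00157, an adjusted p of 1.00 and an exact permutation p of 0.00794, the smallest that 5 against 5 libraries can give. Without HT 4 it was -0.46 (adjusted p 0.423). Across all alternatives run, its log2 fold change stayed between -0.49 and -0.36 and its unadjusted p was under 0.05 in 23 of 23. Of 12 regional genes of the forebrain, set beside it because of its neuronal use, 12 were lower in HT with a median of -0.090. Without HT 4, 8 were lower and 4 higher, with a median of -0.013. Of 12 general neuronal genes, 9 were higher and 3 lower in HT, with a median of 0.049. Without HT 4, 11 of these were higher and 1 lower, with a median of 0.064. The part of either list in the difference was not tested.

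*Neu4*, which encodes a brain sialidase, lay in the other direction with low values. It had 75.6, 38.2, 42.3, 78.3 and 77.4 in HT 1 to HT 5, and 46.4, 37.7, 56.2, 32.8 and 32.7 in WT 1 to WT 5. HT 1, HT 4 and HT 5 stood above the WT libraries and HT 2 and HT 3 among them, with a log2 fold change of 0.55 ± 0.25 (SE), an unadjusted limma p of 0.0442 and an exact permutation p of 0.0794. Without HT 4 the unadjusted p was 0.0924. *Gpr17*, the receptor that peaks in committed precursors, had 1726, 1905, 1657, 2216 and 1926 in HT 1 to HT 5, and 2134, 1944, 1856, 1894 and 1607 in WT 1 to WT 5. The HT mean was 1886 ± 217 and the WT mean 1887 ± 189 (SD, n = 5 per genotype), and the log2 fold change was -0.0022 with a 95% interval of -0.19 to 0.19, or -0.062 without HT 4.

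*Myrf*, the factor that switches on the myelin genes, had 186, 195, 294, 241 and 242 in HT 1 to HT 5, and 224, 193, 233, 239 and 206 in WT 1 to WT 5. The HT libraries lay on both sides of the WT libraries, with a log2 fold change of 0.067 (-0.20 to 0.34). *Tspan2* had a log2 fold change of 0.11 and the homeodomain factor *Nkx6-2* of 0.49, with unadjusted p of 0.104 and 0.0822. Without HT 4 these were 0.062 and 0.32. The remaining members of this stage were *Enpp6*, a choline phosphodiesterase that marks newly forming oligodendrocytes (0.20), *Bcas1* (0.10), and the zinc finger factors *Zfp488* (0.0049) and *Zfp536* (-0.10), with unadjusted p from 0.198 to 0.976. Without HT 4 their log2 fold changes were 0.13, -0.016, 0.027 and -0.053.

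**Figure D3:**
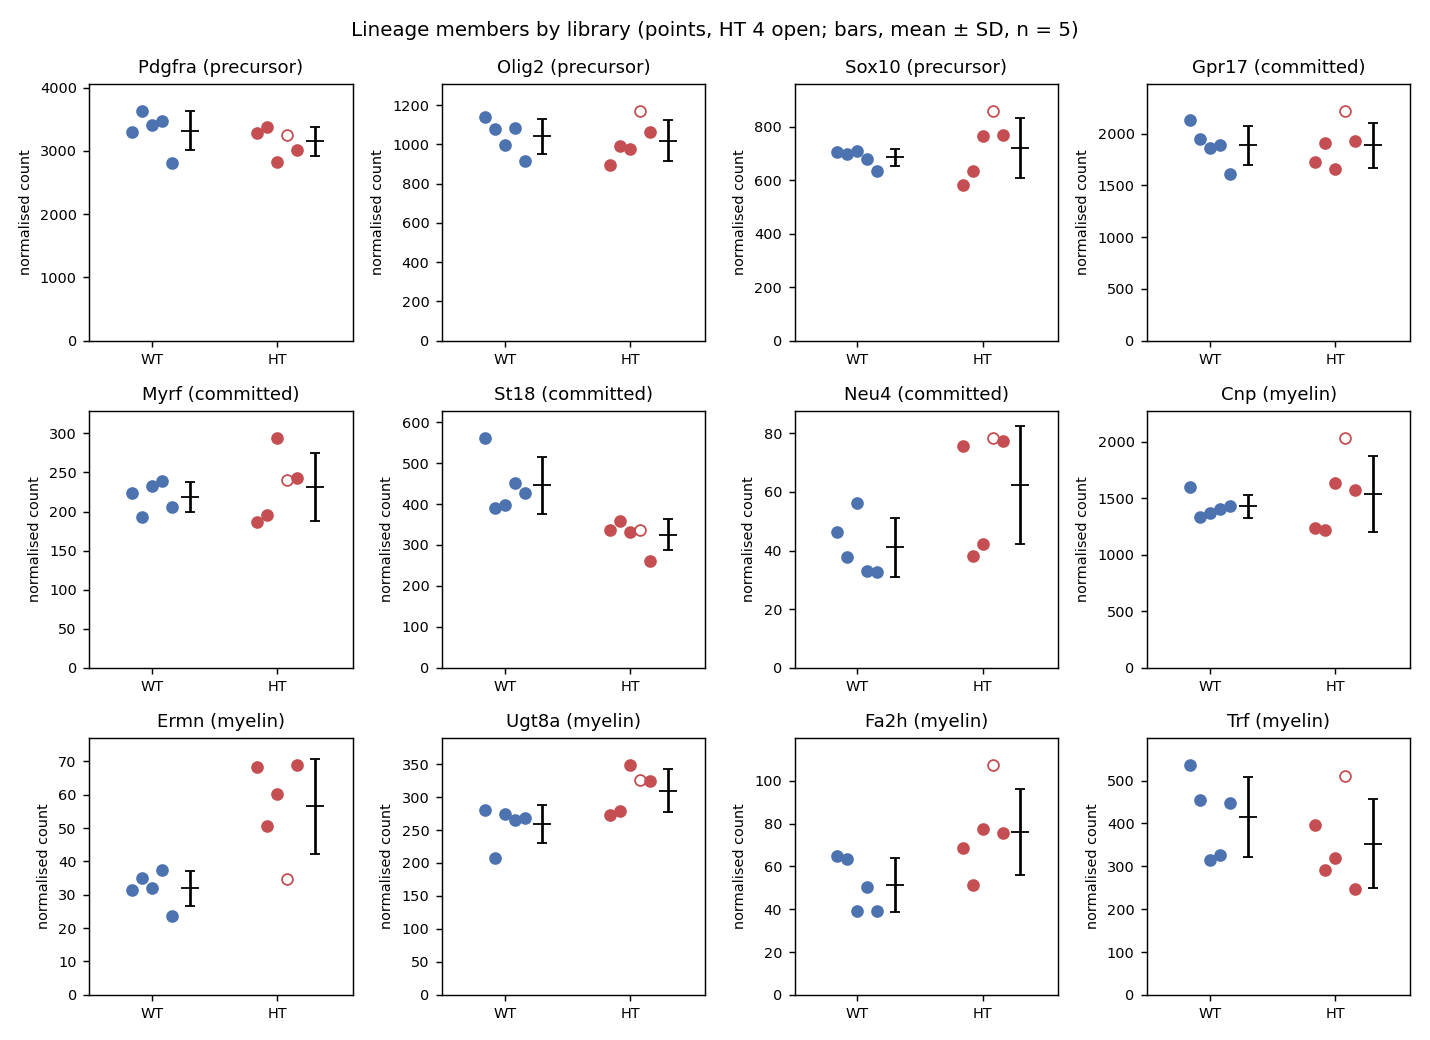
Normalised count (y axis, from 0) of 12 members in each WT (blue) and HT (red) library, with HT 4 as an open circle and the mean ± SD of 5 libraries as bars. *St18* is the panel in which all HT points lie below all WT points, and in that of *Ermn* the HT points other than HT 4 lie above all WT points.

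Among the myelin members, *Ermn* differed most between the genotypes. *Ermn* (ENSMUSG00000026830; chromosome 2, 58045113 to 58052864) encodes ermin, an actin-binding protein of the myelin sheath, and was at a low level. It had 68.2, 50.7, 60.2, 34.7 and 68.7 in HT 1 to HT 5, and 31.5, 35.0, 32.0, 37.5 and 23.7 in WT 1 to WT 5. All HT libraries except HT 4 lay above all WT libraries. Means were 56.5 ± 14.2 (HT) and 32.0 ± 5.19 (WT; SD, n = 5 per genotype). The log2 fold change was 0.78 ± 0.21 (SE) with an unadjusted limma p of 0.00283, an adjusted p of 1.00 and an exact permutation p of 0.0238. Without HT 4 the log2 fold change was 0.94 ± 0.19 (SE), the groups did not overlap, the adjusted p was 0.232 and the exact permutation p 0.00794. *Ermn* shares its place in the genome with *Galnt5* on the opposite strand, which was not among the 18444 genes of the table. Other members overlap measured genes of the opposite strand, among them *Cnp* (*Dnajc7*, mean 5267), *Nkx6-2* (*Inpp5a*, 1010) and *Sirt2* (*Nfkbib*, 462). The labels name a kit that marks strand, and whether the counting used strand is not given in the sources used here.

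*Ugt8a* and *Fa2h*, both enzymes of galactolipid synthesis, were the other myelin members past an unadjusted p of 0.05, and a further enzyme of that synthesis, *Gal3st1*, was not. *Ugt8a*, the transferase that makes galactosylceramide (ENSMUSG00000032854; chromosome 3, 125865271 to 125938619), had 273, 279, 348, 326 and 324 in HT 1 to HT 5, and 280.5, 208, 275, 265 and 268 in WT 1 to WT 5. WT 2 was the lowest library and HT 1 and HT 2 lay within the WT range, with a log2 fold change of 0.26 ± 0.10 (SE), an unadjusted limma p of 0.0275 and an exact permutation p of 0.0397. Without WT 2 the log2 fold change was 0.18. *Fa2h*, the hydroxylase that supplies 2-hydroxy fatty acids to these lipids (ENSMUSG00000033579; chromosome 8, 111345135 to 111393824), had 68.7, 51.1, 77.7, 107 and 75.6 in HT 1 to HT 5, and 64.9, 63.7, 38.9, 50.4 and 39.3 in WT 1 to WT 5. HT 4 was the highest library, and the log2 fold change of 0.55 ± 0.21 (SE; unadjusted limma p 0.0237, exact permutation p 0.0476) became 0.42 without it (unadjusted p 0.0591). *Gal3st1*, which adds sulfate to galactosylceramide, had a log2 fold change of 0.23 (unadjusted p 0.175), or 0.11 without HT 4.

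The other enzymes and membrane proteins of myelin did not separate the genotypes. *Cnp*, the cyclic nucleotide phosphodiesterase found in oligodendrocytes from the precursor stage on, had 1233, 1215, 1632, 2029 and 1570.4 in HT 1 to HT 5, and 1601, 1331, 1366, 1399.7 and 1432 in WT 1 to WT 5. HT 4 was again the highest and the log2 fold change went from 0.083 to -0.024 without it. *Sirt2* had 2719, 2538, 3156, 3132 and 3097 in HT 1 to HT 5, and 2931, 2712, 2859, 2669 and 2899.8 in WT 1 to WT 5. Its groups overlapped, with a log2 fold change of 0.053 (-0.091 to 0.20), or 0.027 without HT 4. *Cldn11*, the tight junction protein of the sheath, *Mal*, a proteolipid, *Gjb1*, the gap junction protein connexin 32, and *Aspa*, the aspartoacylase of oligodendrocytes, had log2 fold changes of 0.074, 0.32, -0.016 and 0.20, with unadjusted p of 0.467, 0.0748, 0.944 and 0.341. Without HT 4 they were at 0.0064, 0.28, -0.024 and 0.13.

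*Trf*, which encodes transferrin and is made both by oligodendrocytes and by the choroid plexus, was the myelin member with the lowest fold change. It had 397, 291, 318, 511 and 248 in HT 1 to HT 5, and 535, 454, 314, 327 and 449 in WT 1 to WT 5. HT 4 was the highest HT library, and the log2 fold change was -0.25 with it (unadjusted p 0.221) and -0.40 without it (unadjusted limma p 0.0404, adjusted p 0.575). Choroid plexus markers were also lower in HT. Of 8 such genes, 8 were lower in HT with a median of -0.43 (5 at an unadjusted p under 0.05, beside 1.93% of all genes lower). Their summed normalised count was 8478 to 11553 in HT and 12293 to 16263 in WT, which did not overlap. Most of that sum was *Ttr*, at 6181 to 9013 in HT and 9509 to 12999 in WT. As a mean deviation from the gene means the groups overlapped, with HT 2 at -0.084 and WT 1 at -0.12 log2 units. Groups did not overlap for 1 of the 8 genes, beside 0.347% of all genes that were lower in this way. None of the 8 was at 0, and their part in the result for *Trf* was not tested.

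Without HT 4, members at an unadjusted p under 0.05 were *Ermn* and *Ugt8a* in the higher direction and *St18* and *Trf* in the lower one, 2 and 2 of 33 beside 4.69% of all genes higher and 3.71% lower. No member had an adjusted p under 0.05, which 0.0118% of all genes had. Groups did not overlap for *Ermn* (higher) and *St18* (lower), beside 1.75% and 1.21% of all genes.

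The members that varied most did so between libraries of 1 genotype. *Mobp*, *Mog*, *Mag* and *Mbp*, structural genes of the myelin sheath, had the largest residual SDs of all members at 0.93, 0.62, 0.53 and 0.43 log2 units, beside a median of 0.16 over all genes. Values of every library are given for *Mobp*, *Mag* and *Mbp* because of this spread, a choice made after the values were seen. *Mobp*, a basic protein of the sheath (ENSMUSG00000032517; chromosome 9, 120149707 to 120181484), had 149, 105, 396, 299 and 426 in HT 1 to HT 5, and 231, 47.0, 229, 196 and 205 in WT 1 to WT 5. The highest library had 9.08 times the value of the lowest, and 98.6% of genes had a smaller residual SD. Its log2 fold change of HT against WT was 0.59, and 0.16 without WT 2. *Mag*, the myelin-associated glycoprotein of the innermost membrane (ENSMUSG00000036634; chromosome 7, 30899176 to 30914873), had 196, 161, 325, 346 and 361 in HT 1 to HT 5, and 269.8, 105, 223, 205 and 240.3 in WT 1 to WT 5. *Mbp* had 2583, 2720.3, 4804, 5009.8 and 4724 in HT 1 to HT 5, and 3549, 1921, 3595, 2792 and 3273 in WT 1 to WT 5. In all of these WT 2 was the lowest library, HT 1 and HT 2 lay below most of the others, and HT 3, HT 4 and HT 5 were the highest. *Mog* had the same low library but small values throughout, from 6.00 in WT 2 to 26.1 in HT 3.

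Libraries also differed in their levels of Hox genes, which are expressed in the hindbrain and spinal cord and not in the forebrain. A caudal Hox score was taken as the mean log2 deviation of 14 Hox genes from their own means. It ran from -2.83 in WT 2, -1.72 in HT 2 and -1.34 in HT 1 over -0.402 in WT 1 and -0.0946 in HT 4 to 0.596, 0.762 and 1.04 in WT 3, WT 5 and WT 4, and 1.88 and 2.10 in HT 3 and HT 5. *Hoxb8*, a gene of the spinal cord, was at 0 in HT 1, HT 2, HT 4, WT 1 and WT 2, and had 223 and 224 normalised counts in HT 3 and HT 5. Mean scores were 0.17 ± 1.77 in HT and -0.17 ± 1.58 in WT (SD, 5 libraries per genotype), and the groups overlapped.

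**Figure D4:**
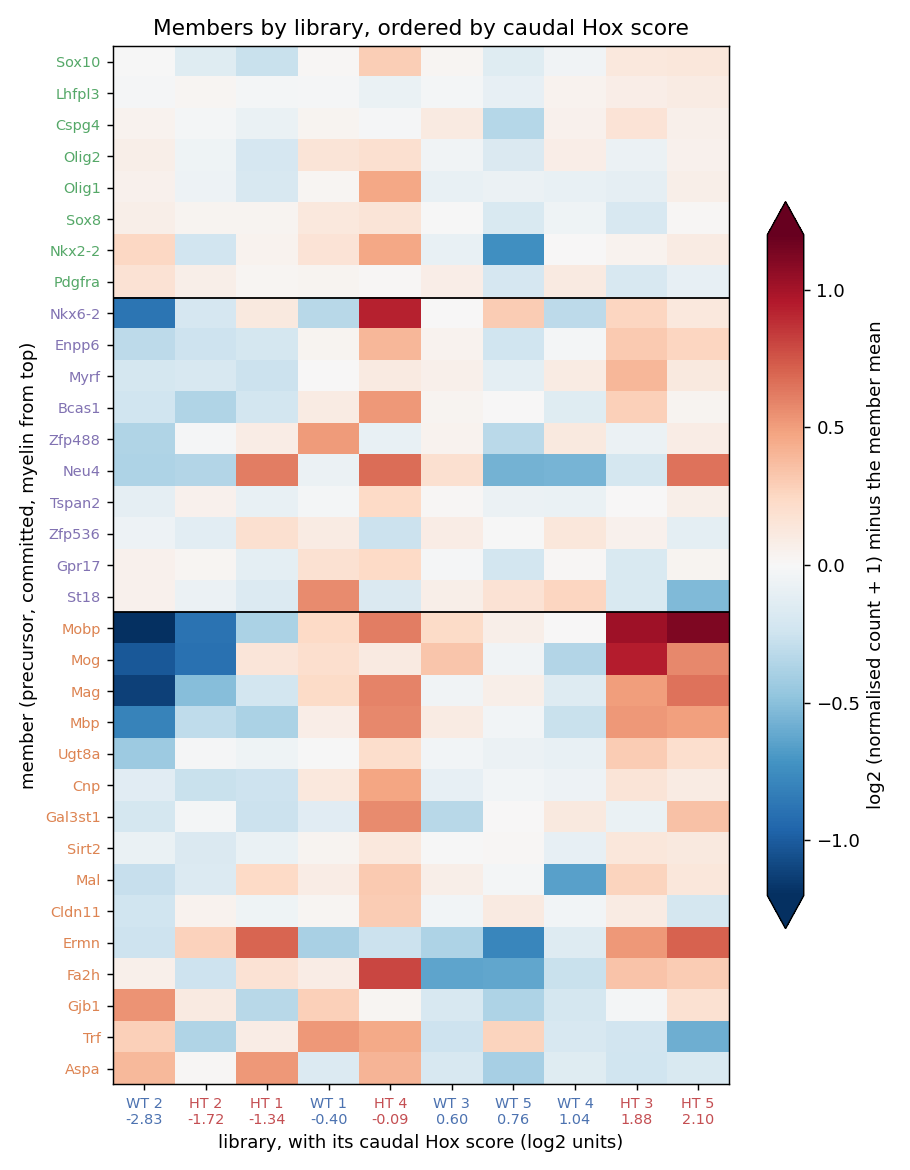
Log2 deviation of each member (rows) from its own mean in the 10 libraries (columns), with libraries ordered by the caudal Hox score printed under each name. The rows of *Mobp*, *Mog*, *Mag* and *Mbp* are below their means in WT 2 and HT 2 at the left and above them in HT 3 and HT 5 at the right. The libraries between lie on both sides of the means, without a steady order. The precursor members at the top vary less.

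The score was then added to the limma fit beside genotype, an analysis chosen after the values were seen. The slope is the change in log2 value per unit of the score within genotypes. *Mobp* was called, with a slope of 0.51 ± 0.067 (SE) and an adjusted p of 0.0128. It was 1 of only 4 genes outside the Hox list so called, 0.0235% of 17006. The other 3 were *Pax8*, *Mafa* and *Prrxl1*, transcription factor genes with slopes of 0.47, 0.41 and 0.53. Without HT 4, *Mag* was called as well, with a slope of 0.27 (adjusted p 0.0350), so that 2 members were among the 8 genes called (0.047%). With all libraries the adjusted limma p of *Mag* was 0.314. Of the 10 fits that left out 1 library, *Mag* was called in 1 and *Mobp* in 6. The call of *Mobp* rested on the ends of the scale: without WT 2, its slope was 0.42 and its adjusted p 0.324, and without HT 2, HT 3 or HT 5 the adjusted p was 0.0865, 0.0542 and 0.0874. In the 5 HT libraries the order of *Mobp* was the order of the score, while the 4 WT libraries other than WT 2 held 231, 229, 205 and 196 from the lowest score to the highest, the reverse order.

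At an unadjusted p under 0.05, 7 members had a positive slope, *Mobp*, *Mag*, *Mbp*, *Mog* and *Ugt8a* of myelin and *Myrf* and *Enpp6* of the committed stage, beside 1.41% of all genes. A negative slope past the same limit was found for *Pdgfra* and *Aspa*, 2 of 33 beside 2.06% of all genes. *Mobp*, *Mag*, *Mbp* and *Myrf* stayed under this limit whichever library was left out. Without WT 2, the unadjusted limma p was 0.0798 for *Ugt8a*, 0.0520 for *Mog*, 0.0556 for *Enpp6*, 0.0997 for *Pdgfra* and 0.124 for *Aspa*. *Enpp6* was also above 0.05 without HT 1, HT 2 or HT 3, *Pdgfra* without HT 2 or HT 3 and *Aspa* without HT 1 or HT 3, with p from 0.0637 to 0.103, 0.0696 to 0.0938 and 0.0536 to 0.0589. Slopes were 0.27 for *Mag*, 0.21 for *Mbp*, 0.29 for *Mog*, 0.10 for *Enpp6*, 0.100 for *Myrf* and 0.085 for *Ugt8a*, and -0.051 for *Pdgfra* and -0.15 for *Aspa*. By stage the median slope was -0.0035 for precursor, 0.024 for committed and 0.042 for myelin members. *Ermn* and *St18*, the members that differed most by genotype, had slopes of 0.014 and -0.029 (unadjusted p 0.856 and 0.458).

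With the score in the fit, the residual SD of *Mobp* was 0.38 in place of 0.93, that of *Mag* 0.31 in place of 0.53 and that of *Mbp* 0.27 in place of 0.43. Their log2 fold changes of HT against WT were then 0.42 ± 0.20, 0.32 ± 0.17 and 0.30 ± 0.14 (SE), with unadjusted limma p of 0.0584, 0.0810 and 0.0549, against 0.59 ± 0.52, 0.41 ± 0.28 and 0.37 ± 0.24 without it. Without WT 2, and with no score in the fit, *Mag* was at 0.18, *Mbp* at 0.21 and *Mog* at 0.14, the last against 0.35 with all libraries. With the score in the fit and all libraries, *Ermn* was at 0.77, *Ugt8a* at 0.23 and *St18* at -0.44, and no member had an adjusted p under 0.05. The median of the myelin members was 0.25 with the score and 0.26 without it.

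**Figure D5:**
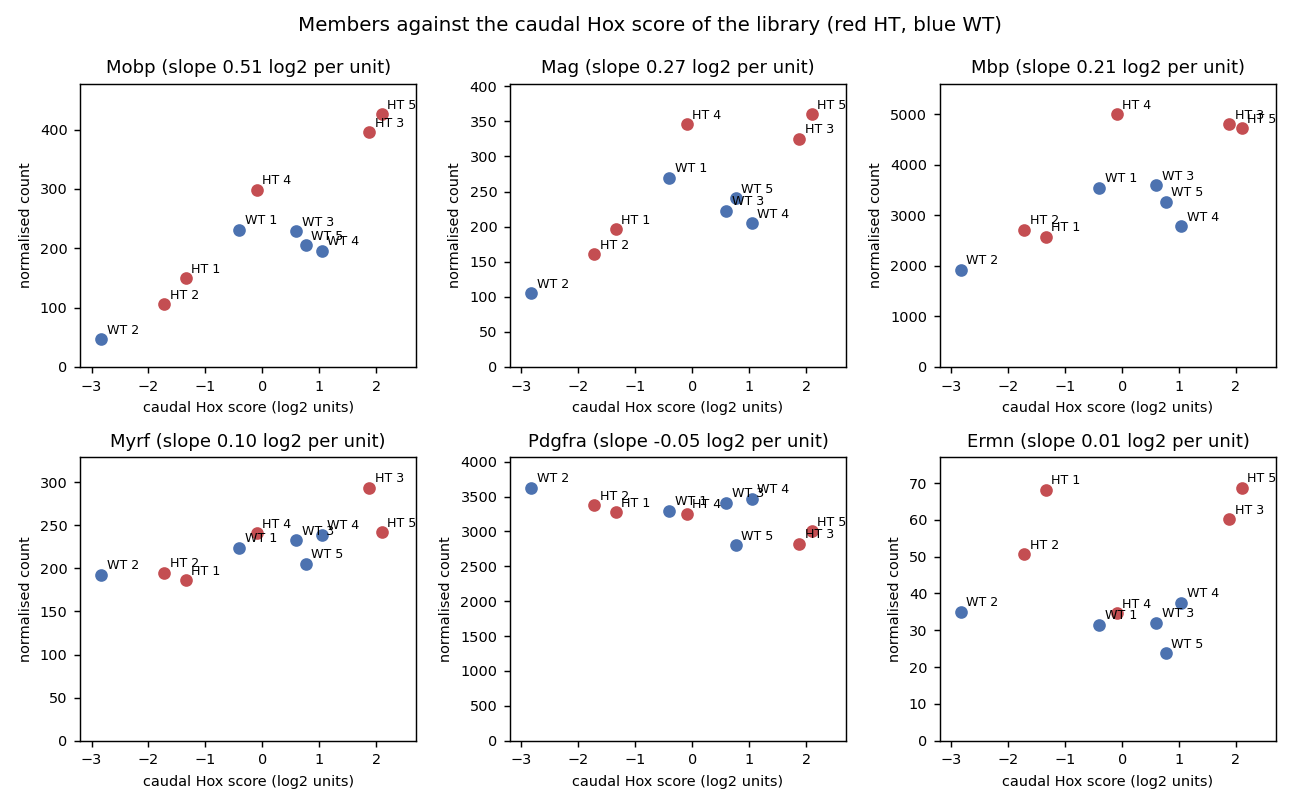
Normalised count (y axis, from 0) of 6 members against the caudal Hox score of the library (x axis, log2 units), with 1 point per library, HT red and WT blue. *Mobp* goes from 47.0 in WT 2 at the low end to 426 in HT 5 at the high end, *Pdgfra* has its highest value at the low end, and *Ermn* has no order along the axis.

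No promoter window is shown for *St18*. Promoters are shown for *Mobp* and *Mag*, called on the Hox score (*Mag* only without HT 4), and for *Ermn*, which had the highest fold change by genotype. Each is the RefSeq window (GRCm38.p6) from 250 bases before to 50 bases after the start of the gene, 5′ to 3′ on the strand of the gene, and the *Mag* window is that of 1 of its 3 listed starts. Capitals mark matches, on either strand, to ACAAAG or ACAATG, short forms of the sequence that SOX factors bind, or to CTGGCAC, a short form of that of MYRF.
Mobp, chr9:120149492-120149791, plus strand: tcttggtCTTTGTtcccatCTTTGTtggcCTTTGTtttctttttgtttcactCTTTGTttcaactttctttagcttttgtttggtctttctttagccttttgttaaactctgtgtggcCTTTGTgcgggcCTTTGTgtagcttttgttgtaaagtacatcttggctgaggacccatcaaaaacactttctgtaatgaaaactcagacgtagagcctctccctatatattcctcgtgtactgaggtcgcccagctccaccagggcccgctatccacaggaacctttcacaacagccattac
Mag, chr7:30914814-30915113, minus strand: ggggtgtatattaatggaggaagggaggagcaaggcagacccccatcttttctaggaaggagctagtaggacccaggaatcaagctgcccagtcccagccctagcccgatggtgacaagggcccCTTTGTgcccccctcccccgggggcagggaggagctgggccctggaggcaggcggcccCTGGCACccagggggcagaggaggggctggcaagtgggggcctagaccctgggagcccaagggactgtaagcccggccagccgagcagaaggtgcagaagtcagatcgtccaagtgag
Ermn, chr2:58052815-58053114, minus strand: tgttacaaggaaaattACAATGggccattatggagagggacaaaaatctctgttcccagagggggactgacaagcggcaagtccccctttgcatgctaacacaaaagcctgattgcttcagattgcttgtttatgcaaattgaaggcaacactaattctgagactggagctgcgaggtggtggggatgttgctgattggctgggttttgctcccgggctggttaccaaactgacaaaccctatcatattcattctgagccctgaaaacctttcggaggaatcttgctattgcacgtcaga

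The *Mobp* window held 6 matches to ACAAAG, all on the other strand (CTTTGT), and was the only 1 of the 32851 windows with as many. The *Mag* window held 1 match to ACAAAG and 1 to CTGGCAC, and the *Ermn* window 1 match to ACAATG. The RefSeq table held 33 windows for 25 of the 34 members. ACAAAG was found in 8 of these 33 windows, from 6 members (*Cnp*, *Gjb1*, *Mag*, *Mobp*, *Opalin* and *Tspan2*), and in 18.71% of all windows. ACAATG was found in 7 of the 33, from 6 members, and in 12.57% of all. CTGGCAC was found in 4 of the 33, from 3 members (*Cnp*, *Mag* and *Opalin*), and in 5.01% of all. The E boxes CAGCTG and CAGATG, which basic helix-loop-helix factors bind, were in 4 and 5 of the 33, from 4 and 5 members. They were in 16.3% and 17.15% of all. ACAAAG and ACAATG differ in their letters and cannot match at the same position, CAGCTG reads the same on both strands, and a match describes the letters only.

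Further genes of the lineage were read from lists written beside the members, with log2 fold changes and unadjusted limma p for those named. None of these lists held a gene with an adjusted p under 0.05, with or without HT 4. Beside their counts at an unadjusted p under 0.05 stand 1.47% of all genes higher and 1.93% lower. Without HT 4 these shares were 4.69% and 3.71%. With all libraries, groups did not overlap for 0.282% of all genes (higher) and 0.347% (lower). Of 16 further precursor genes, 7 were higher and 9 lower in HT, with a median of -0.031 and 0 at an unadjusted p under 0.05. Without HT 4 they were 9 higher and 7 lower with a median of 0.046, 0 higher and 2 lower at an unadjusted p under 0.05. With all libraries, the smallest p belonged to *Rlbp1* (-0.13, p 0.0591), and *Tmem100* (0.20, p 0.0893) was also among the smallest. *Ptprz1*, a receptor phosphatase of radial glia and precursors, had the highest level per kilobase of the list and was at -0.096. Of 17 further genes of the committed stage, 10 were higher and 7 lower (median 0.015), and without HT 4 10 higher and 7 lower with a median of 0.038, 3 higher and 2 lower at an unadjusted p under 0.05. With all libraries, *Fam107b* (-0.17, p 0.00477) was the 1 gene of this list at an unadjusted p under 0.05, with each HT library (858 to 909 normalised counts) below each WT library (953 to 1056). Next came *Bmp4* (0.39, p 0.123), a ligand that newly committed cells make, and *Tmem163* (0.14, p 0.186), while *Fyn*, a kinase of process outgrowth with the highest level, was at 0.031.

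Further myelin genes were divided in direction. Of 37 tested, 18 were higher and 19 lower, with a median of -0.00055 (17 and 20 without HT 4, median -0.012, 0 higher and 3 lower at an unadjusted p under 0.05), and the difference between this median and that of the members was not tested. With all libraries, *Anln* (-0.35, p 0.00452), an actin-binding protein of dividing cells that adult myelin also contains, was the 1 gene of this list at an unadjusted p under 0.05, and its values were 177, 201, 183, 241 and 171 in HT 1 to HT 5, and 244, 252, 229, 248 and 262 in WT 1 to WT 5. HT 4 alone reached the WT range, and without it the log2 fold change was -0.43 (adjusted p 0.251). *Pllp* (0.31, p 0.0774) and *Car2* (0.17, p 0.0908), a proteolipid and a carbonic anhydrase, had the next smallest p, and *Tubb4a*, a tubulin of neurons and oligodendrocytes with the highest level, was at -0.00055.

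Of 31 ligands, receptors and inhibitors that act on the lineage, 9 were higher and 22 lower in HT (median -0.046), with 1 and 2 at an unadjusted p under 0.05. Without HT 4 they were 9 higher and 22 lower with a median of -0.025, 1 higher and 4 lower at an unadjusted p under 0.05. *Erbb2* (-0.41, p 0.00733), a neuregulin co-receptor, had 185, 191, 181, 178 and 143 in HT 1 to HT 5, and 218, 214, 220.0, 322 and 209.6 in WT 1 to WT 5. Every HT library lay below every WT library. *Smo* (-0.20, p 0.0428), the transducer of hedgehog signals, was also lower, and *Id4* (0.10, p 0.0496), an inhibitor of differentiation factors, was higher. *Thra*, a receptor for the thyroid hormone that times myelination, had the highest level and was at -0.002. Of 15 chromatin factors with known roles in the lineage, 5 were higher and 10 lower (median -0.017), with 0 at an unadjusted p under 0.05. The direction of this tally turned on HT 4, since without it they were 9 higher and 6 lower with a median of 0.0093, and *Ezh2* was at -0.26 (unadjusted p 0.0164). With all libraries, the smallest p belonged to *Ezh2* (-0.18, p 0.139), *Chd7* (-0.092, p 0.338) and *Prmt5* (-0.041, p 0.407), and *Hdac2*, with the highest level, was at -0.023.

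Myelin proteins shared with peripheral nerve were checked against Schwann cell genes. Of 13 Schwann genes tested, 7 were higher and 6 lower in HT, with a median of 0.019 (0.036 without HT 4). The gene with the highest level per kilobase, *Fabp7* (mean of 15478 normalised counts), is also on the astrocyte and radial glia list. The tally is therefore not one of Schwann cells alone. Lists for other cell types were read in the same way. The endothelial and mural list includes *Cspg4*, which is also a precursor member and was at 0.042. Microglial genes were lower in 14 of 14 (median -0.22), endothelial and mural genes in 7 of 10 (-0.075), astrocyte and radial glia genes in 6 of 14 (0.021), cerebellar genes in 9 of 11 (-0.15) and neuronal genes in 3 of 12 (0.049). Without HT 4, microglial genes were lower in 14 (-0.32), endothelial and mural genes in 7 (-0.13), astrocyte and radial glia genes in 9 with a median of the other sign (-0.035), cerebellar genes in 11 (-0.22) and neuronal genes in 1 (0.064). Erythroid genes were higher in 6 of 6 (0.48, or 0.42 without HT 4). These tallies count genes, not mice, and the mean deviations of the HT and WT libraries overlapped for each of these lists. Microglial genes ran from -0.42 to 0.24 in HT and -0.27 to 0.41 in WT (log2 units). Erythroid genes ran from -0.47 to 0.89 in HT and -1.24 to 0.86 in WT. The lowest cerebellar value, -1.14, was that of HT 5. None of these genes had an adjusted p under 0.05, and the part of these cell types in the results for the members was not tested.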

How the data were processed

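RNA of 10 whole brains was sequenced as paired-end poly-A libraries made with a kit that, per the labels, marks strand. Per the study's methods and the labels, the authors estimated transcript reads with Salmon 1.1.0 on GRCm38 with a GC correction, summed them to genes with tximport and divided them by size factors from DESeq2 1.30.1. The deposited table holds this signal, a normalised count per gene and library that is not a whole number, so that no count model was used. The annotation release and any filter were not given in the sources used here. Symbols, positions and lengths came from GENCODE M21 (18431 of 18444 genes matched).

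Values were analysed as log2(value + 1), which understates changes of low genes, with limma 3.58.1 (trend and robust) in R 4.3.3 and Python 3.11.15. Genes with a mean of at least 10 were tested (17020) with Benjamini-Hochberg adjusted p over the whole set, two-sided, and single members also by a two-sided exact permutation test over 252 assignments (smallest p 0.00794; over 126 assignments without HT 4). The workflow was tested on simulated data. Precision rests on the spread over mice, which may include litter, and depth limits low members such as *Mog* and *Gjb1* most. Members and lists were chosen with earlier results of these data known, so no list was tested. All 34 members are named, and values of every library are given for those past an unadjusted p of 0.05, those whose groups do not overlap, the highest of each stage and 6 reference genes. Of each further list the 3 smallest p and the highest level are named, except for items not reported here. The alternatives were 23 other settings of scaling, filter, pseudocount, model and libraries.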

Additional observations from a re-analysis of the deposited data

Results flagged for a closer look

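In a group of 5 libraries, a value was singled out when the highest or lowest library lay far from the next one, relative to the whole range of the 5. Of 74 groups checked (33 members, 3 stage means and the caudal Hox score, in HT and in WT), 6 met this, where chance gives about 1 in 20, or 3.70. WT 2 was the far library in 3 of them. It was the lowest WT library for *Mobp* (0.810 of the range, at 47.0 normalised counts against 196 to 231) and *Ugt8a* (0.783, at 208 against 265 to 280.5), and the highest for *Aspa* (0.734, at 55.9 against 32.1 to 38.4). WT 2 also had the lowest caudal Hox score, -2.83, and the part of that in these values was not tested for *Ugt8a* and *Aspa* beyond the slopes given above.

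WT 5 was the lowest WT library for *Cspg4* (0.807 of the range, at 625 normalised counts against 809 to 854) and for the mean deviation of the precursor members (0.734, at -0.24 against -0.0049 to 0.081 log2 units), with 0 of 8 precursor members above their own mean. HT 5 was the lowest HT library for *St18* (0.721, at 261 against 332 to 359.6), and without it the log2 fold change of *St18* was -0.37.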

How the results depend on the processing

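No member had an adjusted p under 0.05 under any of the 23 alternatives (smallest 0.204, *Ermn* with HT 4 left out and the length and GC trend removed), and 21 of 33 members kept their direction under all of them. The covariate was chosen after the data were seen. The count of all genes called, 0 with all libraries, was 2 with sample weights, 1 with the trend removed, 2 with HT 4 left out and the trend removed and 3 with HT 4 left out and the covariate, and 0 to 2 in the fits without 1 library (2 without HT 4). Members with an exact permutation p under 0.05 numbered 4, beside 1.72% of all genes higher and 2.19% lower. They numbered 3 with scaling to the table total or the trend removed, and 2 with HT 4 left out and the trend removed. Without 1 library they numbered 2 to 6 (2 without HT 4, HT 5 or WT 4). The share of all genes at this limit is given only for the main setting, so the other counts cannot be set against it. Stage medians of the log2 fold change ranged without 1 library over -0.014 to 0.059 for precursor, 0.037 to 0.14 for committed and 0.18 to 0.30 for myelin members. Small fold changes changed sign: scaling to the table total gave -0.0017 (*Zfp488*), sample weights gave -0.016 (*Olig1*), -0.035 (*Sox8*), -0.0048 (*Bcas1*), -0.041 (*Zfp488*) and -0.012 (*Cnp*), the length and GC trend removed gave 0.014 (*Gpr17*), HT 4 left out and that trend removed gave -0.010 (*Olig1*), -0.0065 (*Sox8*), -0.0026 (*Bcas1*), -0.0052 (*Cnp*) and 0.013 (*Gjb1*), the caudal Hox score as a covariate gave 0.0057 (*Gpr17*), -0.0053 (*Zfp488*) and 0.0081 (*Gjb1*), that covariate and HT 4 left out gave -0.038 (*Olig1*), -0.0079 (*Sox8*), -0.023 (*Sox10*), -0.052 (*Bcas1*), -0.051 (*Cnp*), -0.0015 (*Cldn11*) and 0.0039 (*Gjb1*). Without 1 library the ranges that crossed 0 were -0.038 to 0.074 (*Cspg4*), -0.038 to 0.12 (*Olig1*), -0.086 to 0.011 (*Olig2*), -0.028 to 0.064 (*Sox8*), -0.0052 to 0.14 (*Sox10*), -0.062 to 0.044 (*Gpr17*), -0.016 to 0.20 (*Bcas1*), -0.023 to 0.14 (*Myrf*), -0.085 to 0.13 (*Zfp488*), -0.024 to 0.16 (*Cnp*) and -0.11 to 0.12 (*Gjb1*). The level per kilobase of *Sirt2*, 1356 with the longest transcript, was 1564 with the median coding length and 570.3 with the union of exons. The cause of these shifts was not tested. Same-numbered libraries correlated at -0.104 to 0.0926 in their deviations, under 0.1 in each pair, and 4 of 5 HT libraries correlated best with their own number, a hint from the data only. With a replicate block 0 genes and 0 members were called (limma; 558 genes and 7 members at an unadjusted p under 0.05, *Mobp*, *Mag* and *Mbp* among them and *Neu4* not), and the stage medians were 0.040, 0.084 and 0.26. At this spread, the 95% interval of *Mobp* (-0.57 to 1.76) reaches changes of more than 2-fold.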
